A study of Mus musculus with 30 samples.

Results

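In mouse embryonic stem cells (mESCs), 1489 of the 17994 intervals at which both ChIP-seq replicates had a POU6F1-mCherry peak lay between genes and far from any annotated promoter. The 17994 intervals are the stretches of at least 1 bp that the peaks of replicate 1 and of replicate 2, each called against IgG, have in common. An interval was counted as distal and between genes when it was more than 3 kb from every transcription start site (TSS) of the GENCODE vM21 annotation and touched no protein-coding gene from its start to its end. These intervals, called distal intergenic peaks here, were 8.27% of the total. Of the other intervals, 14568 (81.0%) lay within 3 kb of a TSS and 1937 (10.8%) were distal but inside a protein-coding gene. The choice used position and the presence of a peak in both lists, so neither is a result.

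The mESCs came from *Dis3* flox/flox blastocysts and carried *Pou6f1-mCherry* (label pou6f1mch) or *mCherry* alone (label mch) on pCAG plasmids, from the strong CAG promoter, for 48 h. The peaks are therefore those of an overexpressed, tagged POU6F1 and not of the cells' own protein. Both replicates were precipitated with anti-mCherry antibody and were set against the same single rabbit IgG precipitation of pou6f1mch cells and the same single anti-mCherry precipitation of mch cells, so the replicates share their controls. Genes near the peaks were followed in RNA-seq counts of 23 embryos, sequenced singly, from crosses of *Dis3* heterozygotes, whose null allele was made by CRISPR-Cas9. There were 6 wild-type (WT), 2 heterozygous (Het) and 4 homozygous null (Null) embryos at E2.5, and 3, 5 and 3 at E2.75. None of the embryos was transfected, and the binding was measured in mESCs only.

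POU factors hold DNA with a POU-specific domain linked to a homeodomain, and the classical target of the family is the octamer word ATGCAAAT. Members of class 6, to which POU6F1 belongs, are known for AT-rich homeodomain words such as TAATTA and TAATGAG. Binding far from promoters is often found at enhancers, elements that raise the transcription of a gene at a distance, and at sites of CTCF, the zinc finger protein of many chromatin loop ends. Many mouse promoters lie in CpG islands, GC-rich stretches that have kept the CG dinucleotides lost from most of the genome.

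The sequences of 2 of the 3 highest distal intergenic peaks are shown first, as examples of the strongest sites of the set. Each is the 300 bases around the middle of the interval on the plus strand of GRCm38, and capitals mark the bases of any of 15 words of known factors, on either strand. The window near *Ccne1* holds the SP and KLF word GGGGCGGGG in 2 places and the E-box CACGTG. The one near *Rbm19* holds the CTCF core word AGNNGGCGC on the minus strand. No octamer or homeodomain word is found in either window.
chr7:38084909-38085208, near *Ccne1*: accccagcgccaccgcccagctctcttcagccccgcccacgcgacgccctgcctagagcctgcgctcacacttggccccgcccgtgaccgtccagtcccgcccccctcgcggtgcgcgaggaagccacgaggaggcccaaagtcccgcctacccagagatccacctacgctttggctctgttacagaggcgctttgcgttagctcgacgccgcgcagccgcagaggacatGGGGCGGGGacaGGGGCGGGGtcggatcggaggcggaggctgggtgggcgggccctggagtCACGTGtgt
chr5:120102795-120103094, near *Rbm19*: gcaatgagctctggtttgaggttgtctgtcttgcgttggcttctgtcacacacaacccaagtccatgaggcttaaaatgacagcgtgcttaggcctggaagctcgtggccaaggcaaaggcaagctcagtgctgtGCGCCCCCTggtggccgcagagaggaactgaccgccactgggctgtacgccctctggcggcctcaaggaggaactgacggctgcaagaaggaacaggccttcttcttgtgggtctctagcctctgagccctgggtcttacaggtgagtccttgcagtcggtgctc

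A further set shows the distal intergenic peaks beside regulators of the first cell fates. *Nanog* encodes a pluripotency homeodomain protein, *Tbx3* a T-box factor of naive mESCs, *Nodal* a TGF-beta family ligand, *Cdx2* the trophectoderm homeodomain factor and *Krt8* a keratin of the trophectoderm. The interval near *Nodal* is shown because it carries the octamer, although the start of *Pald1* is closer to it. The 2 near *Cdx2* are the closest and the farthest of the 3 to which it is the nearest coding gene. All 3 of these carry a CTCF core word. That near *Tbx3* is the highest of its 4 and not the closest. The window near *Nanog* holds none of the 15 words, that near *Tbx3* holds the AP-1 word TGANTCA, and that near *Krt8* holds a TEAD word (CATTCCA), an E-box and an ETS word (CCGGAAGT).
chr6:122702690-122702989, near *Nanog*: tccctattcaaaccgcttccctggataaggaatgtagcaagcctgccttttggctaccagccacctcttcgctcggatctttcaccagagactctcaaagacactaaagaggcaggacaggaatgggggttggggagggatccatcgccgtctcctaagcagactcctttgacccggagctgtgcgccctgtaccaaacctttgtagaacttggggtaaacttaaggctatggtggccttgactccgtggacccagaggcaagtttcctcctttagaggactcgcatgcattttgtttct
chr5:119710131-119710430, near *Tbx3*: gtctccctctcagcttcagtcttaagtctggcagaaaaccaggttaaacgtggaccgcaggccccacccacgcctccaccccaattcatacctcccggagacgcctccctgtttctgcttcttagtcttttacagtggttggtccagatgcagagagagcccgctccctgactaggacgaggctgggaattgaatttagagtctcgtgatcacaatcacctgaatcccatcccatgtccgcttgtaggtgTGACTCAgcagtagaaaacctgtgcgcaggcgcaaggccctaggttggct
chr10:61394783-61395082, near *Nodal*: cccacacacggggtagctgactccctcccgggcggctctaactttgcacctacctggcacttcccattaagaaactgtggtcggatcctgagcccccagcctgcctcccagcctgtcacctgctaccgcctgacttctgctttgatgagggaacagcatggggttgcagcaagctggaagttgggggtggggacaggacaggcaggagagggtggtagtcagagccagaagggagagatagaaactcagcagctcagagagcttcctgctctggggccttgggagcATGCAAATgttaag
chr5:147299115-147299414, nearest to *Cdx2*: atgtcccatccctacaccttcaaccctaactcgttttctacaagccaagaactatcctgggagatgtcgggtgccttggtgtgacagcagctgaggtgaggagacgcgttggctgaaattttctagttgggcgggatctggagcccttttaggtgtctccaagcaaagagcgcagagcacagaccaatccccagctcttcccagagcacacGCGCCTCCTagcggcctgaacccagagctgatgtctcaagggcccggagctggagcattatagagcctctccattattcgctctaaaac
chr5:147293133-147293432, farther from *Cdx2*: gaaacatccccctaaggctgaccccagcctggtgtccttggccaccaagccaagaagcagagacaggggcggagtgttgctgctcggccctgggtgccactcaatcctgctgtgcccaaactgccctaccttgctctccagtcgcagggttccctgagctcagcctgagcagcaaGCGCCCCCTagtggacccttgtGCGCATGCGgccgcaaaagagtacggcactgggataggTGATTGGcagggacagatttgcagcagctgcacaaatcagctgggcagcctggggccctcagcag
chr15:101984298-101984597, near *Krt8*: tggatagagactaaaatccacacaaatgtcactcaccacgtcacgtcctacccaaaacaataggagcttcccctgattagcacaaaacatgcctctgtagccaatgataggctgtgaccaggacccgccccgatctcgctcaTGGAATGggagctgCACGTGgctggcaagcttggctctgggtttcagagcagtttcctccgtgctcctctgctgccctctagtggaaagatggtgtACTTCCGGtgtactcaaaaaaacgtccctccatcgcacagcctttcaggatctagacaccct

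Distal intergenic peaks were lower than peaks at TSSs and slightly higher than distal peaks inside genes, in both replicates. Height is the fold enrichment over IgG at the summit of the replicate's peak, as MACS2 gave it. In replicate 1 the distal intergenic peaks had a median of 7.03-fold (middle 50% from 5.33 to 10.0, whole range 3.15 to 55.8). In replicate 2 the median was 4.75-fold (4.18 to 5.54, range 2.41 to 21.3). The medians were 6.19-fold and 4.56-fold for distal peaks inside genes, and 12.97-fold and 5.33-fold within 3 kb of a TSS. The order of the 3 classes was thus the same in each replicate, while their ranges overlapped. The median −log10 q of the distal intergenic peaks was 7.85 in replicate 1 and 3.94 in replicate 2. With 2 replicates, an exact sign-flip test cannot give a p below 0.5, so the differences between classes are given as values without a test.

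**Figure D1:**
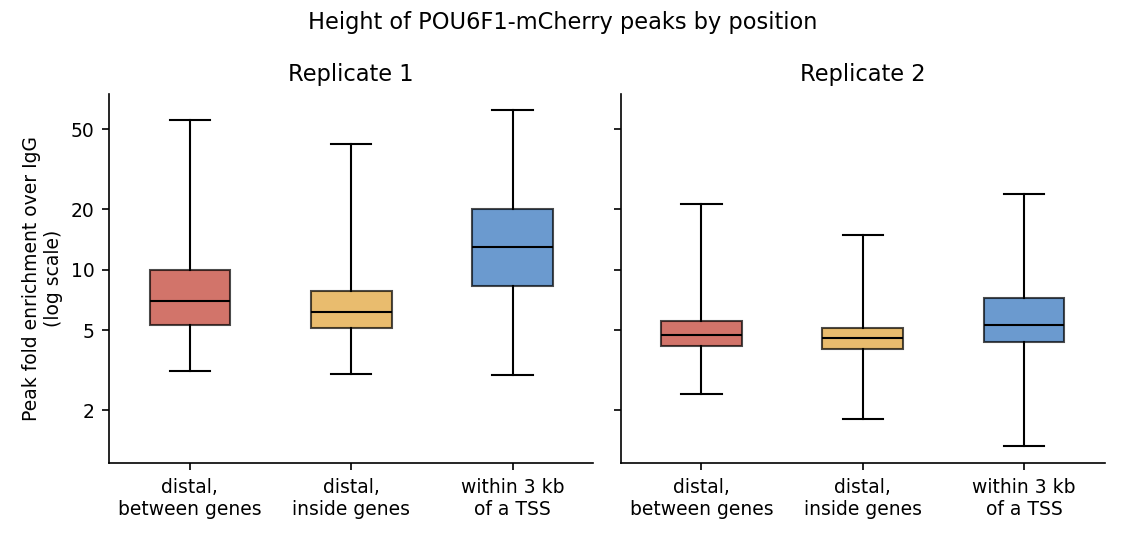
Peak height as fold enrichment over IgG (log scale) in replicate 1 and replicate 2 for the 3 classes of intervals. The line is the median, the box the middle 50% and the whiskers the whole range. Distal intergenic peaks have medians of 7.03 and 4.75, between distal peaks inside genes (6.19 and 4.56) and peaks within 3 kb of a TSS (12.97 and 5.33).

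The heights of the 2 replicates ranked these peaks only loosely alike. The summits of the paired peaks lay a median of 62 bp apart, a distance that the choice of overlapping peaks largely fixes. The shared stretch had a median length of 177 bp, and only 27 intervals were 20 bp or shorter. The 1489 intervals came from 1455 distinct peaks of replicate 1 and 1465 of replicate 2, so a few share a peak. Across intervals, Spearman's rho between the heights of the 2 replicates was 0.41 for distal intergenic peaks, 0.23 for distal peaks inside genes and 0.63 for peaks at TSSs. These correlations describe intervals of 1 pair of libraries with shared controls and carry no test.

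The second control tested the same precipitations against cells with mCherry alone, which have the tag and the antibody but no tagged POU6F1. Of the distal intergenic peaks, 787 (52.9%, 95% Wilson interval 50.3 to 55.4) overlapped a peak called against this control in replicate 1 and 129 (8.66%, 7.34 to 10.2) in replicate 2. Over all shared intervals the shares were 71.9% and 18.8%, so distal intergenic peaks were below the average in both replicates. The shares were 78.6% and 21.8% within 3 kb of a TSS and 36.6% and 4.18% for distal peaks inside genes. The Wilson intervals cover counting error only. Both replicates had such a peak at 123 distal intergenic peaks (8.26%). The list of replicate 2 against mCherry alone was short, with 3630 peaks genome-wide against 31348 in replicate 1.

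In all 3 classes the share with a peak against the second control was larger among higher peaks. The intervals were grouped by their height over IgG in 1 replicate, and the share with a peak against mCherry alone was read in the other. At 20-fold or more in replicate 1, the share in replicate 2 was 58.8% of distal intergenic peaks (47 of 80), 58.6% inside genes and 58.6% at TSSs. From 10-fold to under 20-fold it was 15.7%, 16.4% and 15.5%, and under 6-fold it was 2.25%, 1.10% and 1.67%. At matched height the 3 classes were thus within counting error of each other in replicate 2 above 10-fold. In the other direction they stood apart, since below 4.5-fold in replicate 2, the share in replicate 1 was 41.1% of distal intergenic peaks, 31.1% inside genes and 60.4% at TSSs. All 39 distal intergenic peaks of 10-fold or more in replicate 2 had a peak against mCherry alone in replicate 1.

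**Figure D2:**
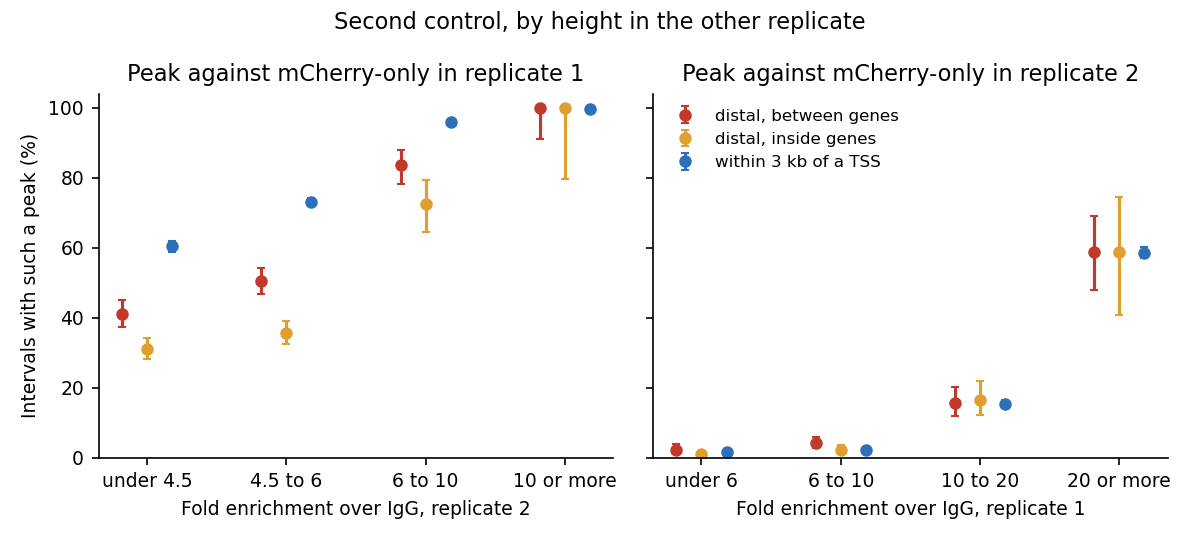
Share of intervals (%) with a peak called against the mCherry-only control in 1 replicate, by fold enrichment over IgG in the other replicate, for the 3 classes. Points are shares and bars are 95% Wilson intervals. In replicate 2 the classes meet at 58.8%, 58.6% and 58.6% for heights of 20-fold or more, while in replicate 1 they stay apart at low heights (41.1%, 31.1% and 60.4% below 4.5-fold).

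Distal intergenic peaks were GC-rich for intergenic DNA and held more CG dinucleotides, but most were not CpG islands. The median GC content of their 300 bp windows was 58.3%, against 40.3% in the 4739242 tiles of 300 bp that cover the genome under the same distance and gene rule. It was 58.7% for distal peaks inside genes and 65.3% at TSSs. The ratio of observed to expected CpG had a median of 0.375, against 0.133 in the tiles, 0.345 inside genes and 0.782 at TSSs. Taking windows with at least 50% GC and a ratio of at least 0.6 as CpG-rich, 307 of the 1489 distal intergenic peaks (20.6%) were CpG-rich, against 0.378% of the tiles and 74.4% of the intervals at TSSs. The tiles are background DNA and not replicates, so no test was made.

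The CpG content of distal intergenic peaks was above that of DNA of the same GC content. In the band from 55.3% to 62.0% GC, which holds 804 of the distal intergenic peaks and 66274 of the tiles, the median ratio was 0.324 in the peaks and 0.218 in the tiles. The CpG-rich share in this band was 11.6% and 5.31%. The ratio was also larger in higher peaks, with a median of 0.316 in the 373 distal intergenic peaks lowest in their weaker replicate and 0.487 in the 372 highest. Repeat-masked bases made up a median of 7.33% of the windows, against 31.0% of the tiles. The study kept uniquely mapping reads only, and the part of this filter in the low repeat content was not tested.

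**Figure D3:**
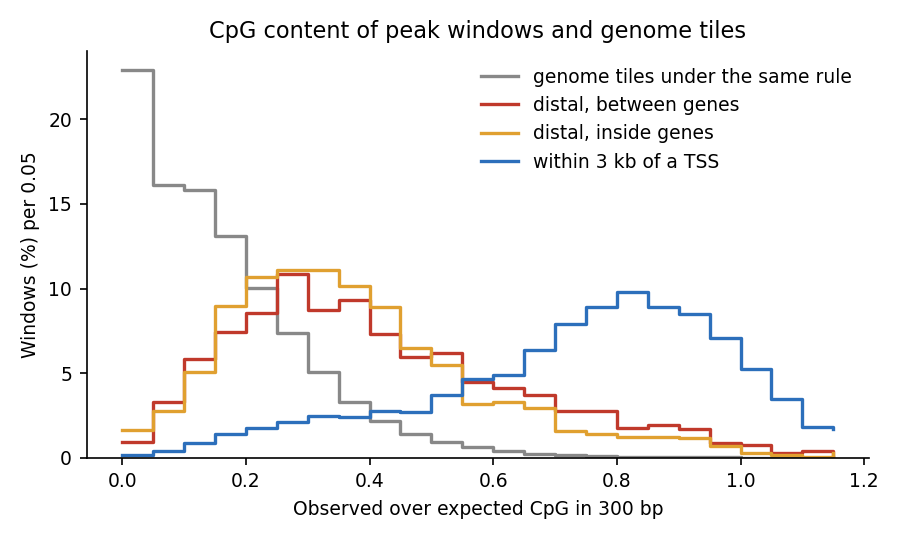
Distribution of the observed over expected CpG ratio (x axis) in 300 bp windows, as percent of windows per step of 0.05 (y axis), for the 3 classes of intervals and the genome tiles under the same rule. The distal intergenic peaks (median 0.375) lie between the tiles (0.133) and the intervals at TSSs (0.782).

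Words of the POU family were rare in distal intergenic peaks, and words of CTCF and of the SP and KLF factors were common. The octamer ATGCAAAT stood in 22 windows (1.48%), TAATTA in 42 (2.82%) and TAATGAG in 44 (2.96%), and at least 1 of these 3 stood in 105 windows (7.05%, 95% Wilson interval 5.86 to 8.47). In all tiles under the same rule the share with at least 1 was 17.5%, and the single shares were 2.98%, 11.2% and 4.42%. This order turned when GC content was matched, since in the band from 55.3% to 62.0% GC, 6.97% of the distal intergenic peaks and 3.89% of the tiles held a POU word, with the octamer in 1.49% and 0.499%. A POU word stood in 4.13% of distal peaks inside genes and in 2.66% of intervals at TSSs. Words were searched on both strands, and 5 of the 23 octamer hits overlapped a hit of the joined SOX and octamer word TTGTNATGC. A word is a match of letters and not a shown binding site.

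The CTCF core AGNNGGCGC was found in 184 distal intergenic peaks (12.4%, 95% Wilson interval 10.8 to 14.1), against 7.07% of distal peaks inside genes, 15.5% of intervals at TSSs and 0.547% of the tiles. In the matched GC band the shares were 8.83% of the peaks and 3.59% of the tiles. Among the 203 hits, 45.8% had their own middle within 50 bp of the middle of the window, where an even spread would give 34.3%. That share was 43.9% of 41 hits for the NRF1 word GCGCATGCG, 41.9% of 229 for the SP and KLF word and 34.7% of 167 for AP-1. Of the POU words, it was 17.4% of 23 octamer hits, 18.6% of 43 TAATTA hits and 34.8% of 46 TAATGAG hits. Distal intergenic peaks with the CTCF word had median heights of 8.67-fold and 4.87-fold and those without it 6.88-fold and 4.75-fold, in replicates 1 and 2. Peaks against mCherry alone in replicate 1 were found at 67.4% of those with the word and at 50.8% of those without. The median CpG ratio also differed between them, at 0.523 with the word and 0.358 without, and its part in the heights was not tested.

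Several other words were in larger shares of the distal intergenic peaks than of the tiles. The SP and KLF word GGGGCGGGG was in 168 windows (11.3%), the NRF1 word GCGCATGCG in 27 (1.81%) and the E-box CACGTG in 168 (11.3%), against 0.329%, 0.0287% and 2.49% of the tiles. The differences were smaller in the matched GC band. There the same words were in 8.955%, 1.49% and 8.83% of the peaks and 2.68%, 0.196% and 5.40% of the tiles. The 27 peaks with the NRF1 word, a palindromic target of a regulator of mitochondrial genes, had median heights of 15.8-fold and 6.29-fold, and 92.6% of them had a peak against mCherry alone in replicate 1 and 11.1% in replicate 2, against 52.1% and 8.62% of the peaks without the word. Their median CpG ratio was 0.603, against 0.370 without the word, and its part in these values was not tested. The AP-1 word TGANTCA, common at enhancers, was in 147 windows (9.87%), against 7.12% of distal peaks inside genes, 3.52% of intervals at TSSs and 8.92% of the tiles. In the matched GC band it was in 10.3% of the peaks and 5.55% of the tiles. By contrast the YY1 word AAGATGGCG was in 6 windows (0.403%) and in 0.369% of the tiles, and in the matched band in 1 of 804 peaks (0.124%) and 4.48% of the tiles. The tiles of the band were matched for GC content and not for repeats, and the part of repeats in this contrast was not tested.

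**Figure D4:**
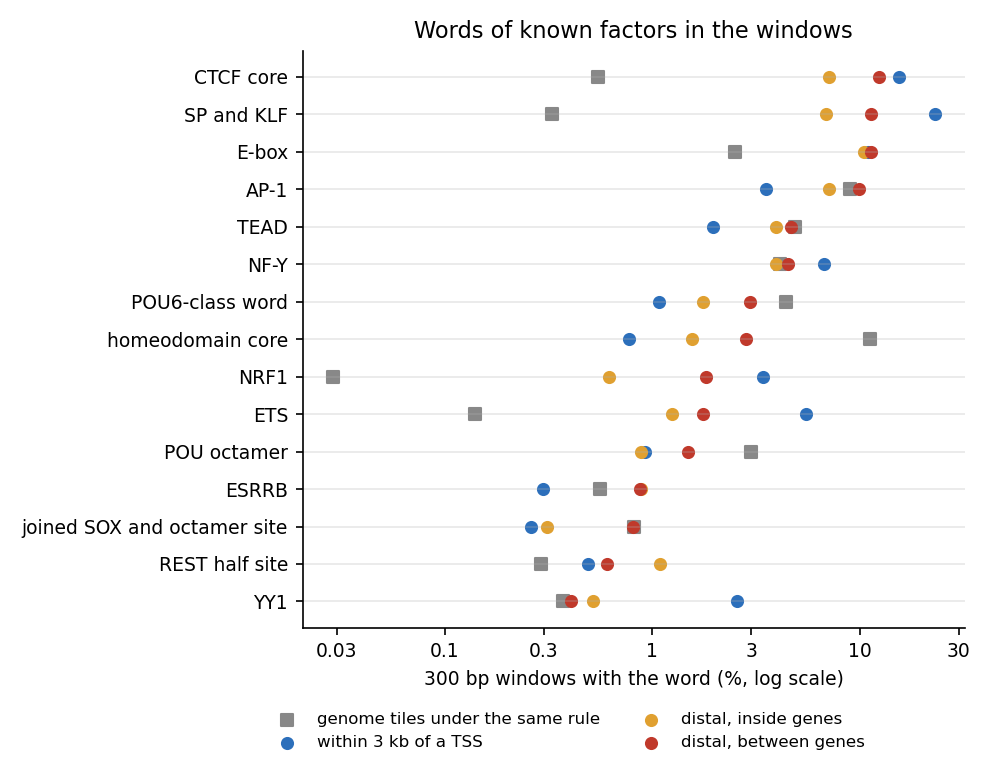
Share of 300 bp windows (%, log scale) with each of 15 words on either strand, for the 3 classes of intervals and for genome tiles under the same rule. CTCF core, SP and KLF and E-box words lead in distal intergenic peaks (12.4%, 11.3% and 11.3%), and the octamer is at 1.48%, below the 2.98% of all tiles.

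Most distal intergenic peaks were within 50 kb of a TSS of some kind. The median distance to the nearest TSS was 11771 bp (range 3004 to 272730) and to the nearest protein-coding TSS 21750 bp. Heights changed little with distance, from medians of 7.22-fold and 4.75-fold at 3 to 5 kb to 6.92-fold and 4.74-fold at 20 to 50 kb, and 5.69-fold and 4.36-fold for the 17 peaks beyond 100 kb. At the 3 kb limit, the 144 intervals at 2 to 3 kb that were left out had medians of 6.89-fold and 4.74-fold, and the 106 kept at 3 to 4 kb had 7.66-fold and 4.75-fold. The nearest TSS was that of a protein-coding gene for 721 peaks (48.4%), of a lincRNA for 302 (20.3%) and of a processed pseudogene for 181 (12.2%).

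Some of these peaks lay at promoters that another annotation knows. RefSeq has a transcript start within 1 kb of 155 distal intergenic peaks (10.4%), and 120 of these starts belong to predicted models. These 155 had median heights of 8.89-fold and 5.02-fold and a median CpG ratio of 0.551, against 6.75-fold, 4.75-fold and 0.358 in the 1230 peaks over 3 kb from every RefSeq start. One of the highest peaks, chr15:85634412-85635172 (40.4-fold and 14.7-fold), sat on the RefSeq start of *D130051D11Rik*, 51939 bp from *Wnt7b*, a WNT ligand gene. The peak 3643 bp from the annotated start of *Tfap2c*, an AP-2 factor of the trophoblast and germ line, also sat on a RefSeq start of *Tfap2c*.

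The highest distal intergenic peaks lay next to genes of different roles. Ranked by the weaker replicate, the first was chr7:38084784-38085334, 14035 bp from the start of *Ccne1*, the cyclin E1 gene of S phase entry, at 45.8-fold in replicate 1 and 21.3-fold in replicate 2. The third was chr5:120102822-120103067, 13398 bp from *Rbm19*, a ribosome assembly gene, at 35.3-fold and 15.8-fold. The fourth to the tenth were nearest to *Dgcr6*, *Adamtsl4*, *Wnt7b*, *Slc38a2* (an amino acid transporter), *Bhlhe41* (a bHLH repressor of the clock), *Glis2* and *Foxk1* (a forkhead factor), with 14.04-fold to 14.98-fold in replicate 2. Peaks against mCherry alone were present in both replicates at 9 of the 10, and at the *Foxk1* peak in replicate 1 only.

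Of the lists of lineage genes, the pluripotency list had 13 of 31 genes with a distal intergenic peak within 100 kb, the trophectoderm list 7 of 13, the primitive endoderm list 1 of 7 and the neural list 5 of 10. Over all 21938 protein-coding genes the share was 15.8%. The core factors *Pou5f1* and *Sox2* had none, and no such peak lay within 100 kb of *Esrrb*, *Zfp42* or *Tead4* either. The lists were short and were drawn up with earlier results of these data known, so the counts describe the genes and do not test the lists.

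The peak near *Nanog*, chr6:122702762-122702918, was 4571 bp from its start and low, at 5.14-fold in replicate 1 and 4.94-fold in replicate 2. It had a peak against mCherry alone in replicate 2 (4.72-fold) and none in replicate 1. *Cdx2* was the nearest coding gene of 3 peaks at 7937, 12857 and 13910 bp, at 4.498-fold and 4.53-fold, 6.89-fold and 4.75-fold, and 10.9-fold and 3.95-fold. All 3 windows held a CTCF core word, and only the third had a peak against mCherry alone, in replicate 1. *Tbx3* was nearest to 4 peaks, of which chr5:119710073-119710489 was the highest (12.1-fold and 8.71-fold) with peaks against mCherry alone in both replicates. The peak 19909 bp from *Krt8* (8.82-fold and 5.36-fold) also had both. That 16629 bp from *Klf4*, a pluripotency zinc finger factor, reached 14.1-fold and 4.64-fold, and the octamer-bearing one 22984 bp from *Nodal*, and 11347 bp from the closer *Pald1*, 7.46-fold and 6.78-fold, each with a peak against mCherry alone in replicate 1 only.

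The embryo libraries had 1690192 to 14015980 gene counts (median 8030848). *Dis3* levels, as CPM (gene counts scaled to a common library total) after TMM normalization, were 0 to 21.5 in Null, 30.4 to 59.2 in Het and 18.1 to 147 in WT embryos, so Null and Het did not overlap. Counts of *Pou6f1* itself were 17.7 to 78.4 CPM in Null (median 29.0) and 7.99 to 34.9 in Het embryos (median 15.8), which is a log2 fold change of 1.38 (adjusted p = 0.169 by the quasi-likelihood test of edgeR, Benjamini-Hochberg), short of the threshold of 0.1. It passed with DESeq2 (1.39, adjusted p = 0.0933), and in edgeR with Null and Het embryos alone (1.35, adjusted p = 0.0841) or with stage as a covariate (1.72, adjusted p = 0.0706). *Pou6f1* was not called in any of the 14 edgeR fits without 1 Null or Het embryo (adjusted p up to 0.321). With ERCC spike-in normalization in edgeR its change was 0.24 (adjusted p = 0.792). The 6 markers of the pre-implantation embryo summed to 978 to 1675 CPM in Null, 1306 to 2111 in Het and 633 to 2154 in WT, all with counts. Cumulus markers stayed at 3.32 CPM or lower, blood markers at 5.72 or lower, and the liver marker *Alb* at 0. Reads outside annotated features were 30.95% to 42.7% of a Null library and 20.4% to 27.5% of a Het library, which do not overlap, and the part of this difference in the gene results was not tested.

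Of the genes next to distal intergenic peaks that passed the threshold in Null against Het embryos, more fell than rose. The nearest protein-coding gene within 100 kb was taken for 1363 of the 1489 peaks, which gave 1028 genes, 805 of them with 1 such peak. Of these genes 627 passed the filter on low counts. A gene was called when its adjusted p was below 0.1 and its log2 fold change exceeded 1 in either direction, with the stages merged. By this rule 9 of the 627 rose (1.44%) and 22 fell (3.51%) in Null against Het. DESeq2, with 934 of these genes tested, called 21 rises (2.25%) and 35 falls (3.75%). Over all 33616 genes with a count, DESeq2 called 3.70% as rises and 1.63% as falls. Leaving out 1 embryo gave 5 to 9 rises and 13 to 28 falls in edgeR. The fewest rises, 5, came without E2.5 Null replicate 2, E2.75 Het replicate 4 or 5, or E2.75 Null replicate 1, and 13 or 14 falls came without E2.75 Het replicate 1 or E2.5 Null replicate 2 or 4. Over all 13415 genes tested, 3.67% rose and 2.06% fell, and over the 11220 protein-coding genes 1.63% rose and 2.32% fell. The median log2 fold change was −0.23 for the nearest genes, −0.06 for protein-coding genes and 0.02 for all genes. Against the ERCC spike-ins the median of all genes was −1.08 and that of the nearest genes −1.26. On that scale 3 of the nearest genes rose (0.4785%) and 256 fell (40.8%), against 2.15% and 33.45% of all genes. Directions here are therefore relative to the bulk of genes. In whole embryos, fewer cells of a type and less RNA per cell cannot be told apart.

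Most of the nearest genes also had a POU6F1 interval at their own promoter, so the distal and the promoter peak cannot be told apart. Such an interval lay within 3 kb of a start of 708 of the 1028 genes. Of the 518 tested among them, 9 rose and 19 fell (3.67%), with a median of −0.23. The 7960 other protein-coding genes with an interval at their start had 119 rises (1.49%) and 184 falls (2.31%), with a median of −0.07. Of the 109 tested nearest genes without one, 3 passed the threshold in edgeR, all of them falls, 13 (11.9%) had an unadjusted p under 0.05, and the median was −0.19. Genes next to peaks with both peaks against mCherry alone counted 2 rises and 6 falls (7.06%) of 85 tested. With such a peak in replicate 1, whatever replicate 2 had, there were 4 rises (1.00%) and 14 falls (3.50%) of 400 tested. The 47 tested genes with 3 or more distal peaks had 1 call, a fall, and 5 (10.6%) had an unadjusted p under 0.05. Over all protein-coding genes tested the share with an unadjusted p under 0.05 was 15.5%, above both.

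The falls included both stearoyl-CoA desaturases of the locus on chromosome 19, the enzymes that make monounsaturated fatty acids. *Scd1* had a lowest, median and highest level of 19.8, 29.0 and 52.2 CPM in Null, 96.8, 211 and 275 in Het, and 26.4, 61.6 and 273 in WT embryos. *Scd2* had 2.44, 7.05 and 37.8 CPM in Null, 79.9, 218 and 521 in Het, and 10.3, 24.8 and 242 in WT. For both genes every Null embryo was below every Het embryo, while the WT embryos spread across both. The log2 fold changes of Null against Het were −2.50 for *Scd1* (adjusted p = 0.00119) and −3.99 for *Scd2* (adjusted p = 0.00327), by edgeR with Benjamini-Hochberg adjustment. Leaving out any single Null or Het embryo gave −2.64 to −2.39 and −4.36 to −3.76, always past the threshold. As relatives in sequence the 2 genes can share reads, and HTSeq as called leaves out reads that map to more than 1 place, so their levels are uncertain to that extent.

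The *Scd1* peak is shown because it lies 17863 bp from a gene with no interval at its own start, at chr19:44388560-44388827, with 13.9-fold and 7.93-fold over IgG and a peak against mCherry alone in both replicates. Its window holds an NF-Y word (CCAATCA, here on the minus strand) and has a CpG ratio of 0.750. The nearest of the 3 peaks of *Scd2*, chr19:44284180-44284769, was 8905 bp from its start, reached 17.7-fold and 6.49-fold, had both peaks against mCherry alone and held a CTCF core word.
chr19:44388544-44388843, near *Scd1*: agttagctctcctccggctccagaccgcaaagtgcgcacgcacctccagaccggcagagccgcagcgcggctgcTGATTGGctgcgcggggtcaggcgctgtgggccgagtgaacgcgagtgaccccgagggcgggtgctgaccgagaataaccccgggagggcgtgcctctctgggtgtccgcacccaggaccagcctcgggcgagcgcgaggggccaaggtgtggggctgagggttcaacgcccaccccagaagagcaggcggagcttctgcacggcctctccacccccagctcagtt

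The other large falls were of genes with different roles. Those of *Gadd45g*, a gene of growth arrest (−5.86), *Cln6*, a protein of the endoplasmic reticulum (−5.21), and *Zfp438*, a zinc finger gene (−4.65), were in genes with a Null median of 0 CPM, so their fold changes rest on few counts. *Nedd4*, a ubiquitin ligase, changed by −2.89, *Ppp1r21* by −2.04, *H2afy*, which encodes the histone variant macroH2A1, by −1.92 and *Ptpn11*, the phosphatase SHP2, by −1.83. For *Ptpn11* the levels were 7.75, 25.6 and 36.5 CPM in Null and 49.5, 80.0 and 124 in Het embryos, with no overlap (adjusted p = 0.00854, edgeR). WT embryos spread across both, at 23.6, 31.15 and 120 CPM, with a median nearer that of Null. The fall of *Ppp1r21* lost its call in 10 of the 14 fits without 1 embryo with adjusted p-values up to 0.163 and with stage as a covariate (adjusted p = 0.108), and that of *Gadd45g* without Null replicate 2 of E2.5 (adjusted p = 0.101, edgeR).

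The 9 rises were led by genes of low level. *Nupr1l*, a relative of the stress gene *Nupr1*, had 1.53, 9.23 and 35.9 CPM in Null and 0, 0 and 0.369 in Het embryos (log2 fold change 7.03, adjusted p = 0.00556, edgeR). *Cpne5*, a calcium-dependent membrane-binding copine, had 9.77, 23.7 and 34.4 CPM in Null and 0, 1.51 and 3.55 in Het (3.82, adjusted p = 0.0257). In both genes Null and Het did not overlap. WT embryos had 0, 0.413 and 7.99 CPM of *Nupr1l*, which reaches into the Null range, and 0, 0.5325 and 3.05 of *Cpne5*. Among expressed genes, *Gtf2h3* encodes a subunit of the repair and transcription factor TFIIH. It had 145, 209 and 389 CPM in Null and 85.2, 101 and 139 in Het embryos, with no overlap (1.22, adjusted p = 0.0106, edgeR). WT embryos overlapped both, at 59.55, 130 and 306 CPM. The distal peak of *Gtf2h3* is 16806 bp away, reached 5.69-fold and 6.29-fold and held a CTCF core word. It lies in the body of *Tctn2*, annotated as a processed transcript, whose start is closer at 12274 bp. *Slc9a8*, a proton exchanger of inner membranes, changed by 1.78 and *Purb*, a purine-rich element binding protein, by 1.42. *Purb* had 545 to 701 CPM in Null and 144.5 to 336 in Het embryos at E2.5, and 270.1 to 307 and 116 to 226 at E2.75. With stage as a covariate its change was 0.99 and fell short of the threshold of 1. The distal peak of *Purb*, 11207 bp from its start, lies in the antisense gene *Gm11973*.

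The remaining rises, *Adgrb1* (4.13), *1810010H24Rik* (3.89), *Epm2aip1* (1.78) and *Mis18a* (1.01), each lost the call in 9 or 10 of the 14 fits without 1 embryo, and that of *Mis18a* was also lost with stage as a covariate (0.78). For *1810010H24Rik* the median was 5.198 CPM in Null, 0 in Het and 5.271 in WT embryos (WT range 0 to 12.25). Its Null median was thus above that of Het but not above that of WT. For *Adgrb1*, *Epm2aip1* and *Mis18a* the WT medians were 0, 9.455 and 97.77 CPM, below the Null medians of 9.045, 25.32 and 147.7. All 9 rising genes had an interval at their own start. Against the spike-ins 3 of them rose by the same threshold, *Nupr1l*, *Adgrb1* and *Cpne5*. On that scale the change was 0.11 for *Purb*, 0.02 for *Gtf2h3* and −0.24 for *Mis18a*, whose direction turned. The highest distal peak of the group belonged to *Epm2aip1*, at 30.6-fold and 14.04-fold, 15834 bp from its start, with both peaks against mCherry alone and a CTCF core word.

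Of 12 lineage genes next to a distal intergenic peak, 9 were tested, and their adjusted p-values by edgeR were all above the threshold of 0.1, with 4 unadjusted p-values under 0.05 and 2 falls called by DESeq2. *Nanog* had 21.1, 25.2 and 63.6 CPM in Null, 25.4, 117 and 180 in Het and 1.84, 49.5 and 112 in WT embryos (−1.37, adjusted p = 0.176). *Cdx2* had 0, 13.9 and 31.8 CPM in Null, 7.798, 60.9 and 138 in Het and 0, 25.0 and 43.8 in WT (−2.63, adjusted p = 0.141). Without Null replicate 2 of E2.75 the change of *Cdx2* was −3.08 and passed the threshold (adjusted p = 0.0986, edgeR). *Krt8* had 11.8, 32.0 and 81.2 CPM in Null, 59.3, 147 and 176 in Het and 7.99, 56.1 and 186 in WT (−1.48, adjusted p = 0.143). In all 3 the Null median was below the Het median and the groups overlapped, and the adjusted p-values are from edgeR's quasi-likelihood test. With DESeq2 the adjusted p was 0.127 for *Nanog*, 0.0936 for *Cdx2* and 0.0842 for *Krt8*, and with Null and Het embryos alone in edgeR it was 0.0803, 0.106 and 0.0471. The stages were unevenly spread, with 4 of 7 Null and 2 of 7 Het embryos from E2.5, and with stage as a covariate the changes were −1.10, −2.64 and −1.61.

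The other tested lineage genes were *Lin28a* (−0.63), *Hand1* (−0.85), *Id2* (−1.42), *Klf4* (−0.11), *Tbx3* (0.14) and *Tfap2c* (0.25), with adjusted p-values from 0.231 to 0.929 (edgeR). *Tbx3*, with 4 distal peaks the gene of most such peaks among them, had medians of 325 CPM in Null and 322 in Het embryos. *Tfap2a* and *Sox1* were at or near 0 in most embryos and were not tested. In edgeR's test of whether Null against Het differed between the stages, no gene passed an adjusted p of 0.1, and 761 of all 13415 genes and 38 of the 627 nearest genes had an unadjusted p under 0.05.

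**Figure D5:**
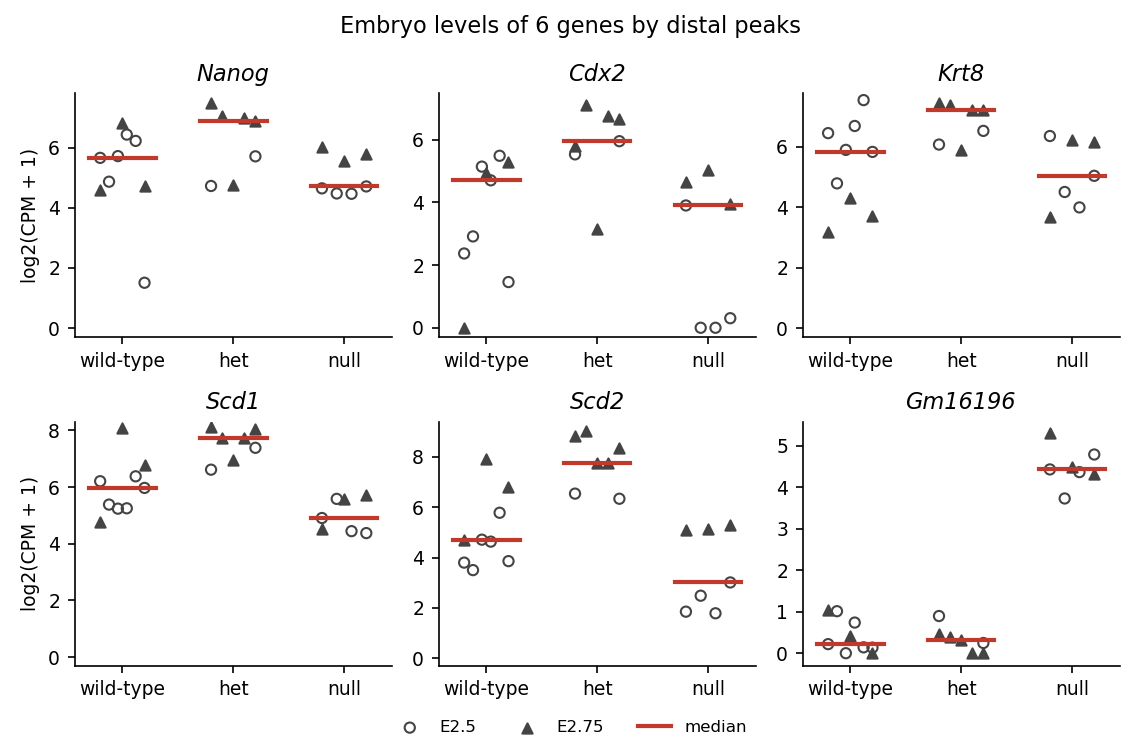
Levels as log2(CPM + 1) in single embryos of 6 genes next to, or holding, a distal intergenic peak, by genotype. Open circles are E2.5 and filled triangles E2.75 embryos, and the red line is the median. *Scd1*, *Scd2* and *Gm16196* separate Null from Het embryos, while *Nanog*, *Cdx2* and *Krt8* have lower Null medians (25.2, 13.9 and 32.0 CPM against 117, 60.9 and 147 in Het) with overlapping groups.

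Distal intergenic peaks also fell inside non-coding genes, which the choice of intervals allowed. In all 159 of them (10.7%) lay in the bodies of 140 non-coding genes, 103 of them in lincRNAs. Of these genes 17 were tested, 4 had an unadjusted p under 0.05 and 1 passed the threshold of edgeR's quasi-likelihood test. DESeq2, which gave an adjusted p for 41 of them, called 6 rises. Over all tested genes that are not protein-coding, edgeR called 14.1% as rises and DESeq2 15.8%, so these counts are near or under the background. The gene called by edgeR was *Gm16196*, a lncRNA on the minus strand of chromosome 17 whose start is 60 bp from that of *Srsf3*, a splicing factor gene on the plus strand. Its levels were 12.2, 20.5 and 38.5 CPM in Null, 0, 0.249 and 0.860 in Het and 0, 0.163 and 1.07 in WT embryos, with no overlap between Null and either (log2 fold change 6.22 for Null against Het, adjusted p = 0.000382, edgeR). The peak in its body, chr17:29027282-29027387, was 6.402-fold and 6.29-fold with no peak against mCherry alone. *Gm16196* is overlapped by the lincRNA *Gm16195* and by no protein-coding gene, and the counting ignored strand.

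Among the 16 of these genes with a mean of at least 1 CPM, the others that were tested had values in both directions. None of these others passed the threshold in the edgeR fit of all embryos with stages merged. *Gm11973* had a log2 fold change of 1.92 there (adjusted p = 0.146). In edgeR it passed with stage as a covariate (1.69, adjusted p = 0.0423) and without E2.5 Het replicate 2 (2.935, adjusted p = 0.0175). *Hnf1aos1* had 1.704 (adjusted p = 0.2158) and passed in edgeR without E2.75 Het replicate 2 (2.42, adjusted p = 0.0702). The log2 fold change was −2.22 for *4933427D06Rik*, −1.11 for *Gm11427*, −0.53 for *Gm32856* and −0.09 for *Gm14005*. *Tbx3os1*, antisense to *Tbx3* and overlapping it, had medians of 4.85 CPM in Null and 0 in Het (2.75, adjusted p = 0.228, edgeR; 0.0782 by DESeq2), and holds a peak of 7.41-fold and 5.04-fold. *Pvt1*, the lincRNA beyond *Myc*, holds 2 peaks (9.91-fold and 4.61-fold, 4.22-fold and 4.26-fold) and had medians of 44.5 and 15.8 CPM (0.97, adjusted p = 0.304; −0.03 against the spike-ins). *E030044B06Rik* was left out of the edgeR test by the filter on low counts, with a median of 6.29 CPM in Null and 0 in Het and WT embryos. It passed in DESeq2 (adjusted p = 0.00256) and in those edgeR fits without 1 embryo that kept it (adjusted p up to 0.0688), and it holds a peak of 17.7-fold and 5.62-fold with peaks against mCherry alone in both replicates.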

How the data were processed

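The 1489 peaks, the word list and the gene lists were chosen with earlier results of these data known. For the ChIP-seq, the authors used Bowtie2 2.4.4 to align reads to GRCm38, Sambamba to filter for unique mapping, and called peaks in each replicate on its own with MACS2 2.2.7.1. The deposited peak lists give, per peak, the fold enrichment over the control (a ratio), the p and q values as −log10 and a score. In 142186 of the 142196 peaks, the deposited score was the whole part of 10 times the −log10 q. No read depth came with the deposited lists, so the precision of a single height is unknown. The labels name 2 replicates where the study's methods speak of 3, and 2 were used. For the RNA-seq, the authors trimmed with Cutadapt 3.4, aligned with STAR 2.7.8a and counted reads per gene with HTSeq 0.11.4, without regard to strand, and the deposited unit is the raw count.

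From these files, peaks were intersected (17994 intervals, equal to those of bedtools 2.31.1), and heights taken from the peak holding the interval. Windows of 300 bp and tiles were read from GRCm38. Reads with no gene were left out of library sizes (a median of 28.1% of a library, with ambiguous reads), as were the 92 ERCC spike-ins. The test on counts was that of edgeR 4.0.16 under R 4.3.3 (quasi-likelihood test, TMM, filterByExpr, Benjamini-Hochberg over all genes tested), with all 23 embryos in 1 fit and stages merged by genotype. The embryos are single animals, and no 2 had identical counts. The fits and the intersection were tested on simulated data. Named were the 10 highest peaks, 1 per 10 kb, by the weaker replicate; for each lineage gene the closest peak within 100 kb; the lineage genes nearest to a peak; the 10 largest rises and falls among nearest genes called; and non-coding genes that hold a peak and average at least 1 CPM. For *Tbx3* the peak shown is the highest of its 4 and not the closest. The *Scd1* peak was singled out after its values were seen. Alternatives were 5 kb from every TSS, gene bodies of any kind, stricter overlap or q, merged intervals, single replicates, assembled chromosomes only, whole intervals as windows, DESeq2 1.42.0, other normalizations and filters, stage, a replicate block, other limits for the nearest gene and fits without single embryos. Input samples were not analysed here, and a few genes and sequences that met these rules are not reported here. The labels give no litters, so embryos of a group may share a litter.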

Additional observations from a re-analysis of the deposited data

Results flagged for a closer look

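Among the lineage genes next to a distal intergenic peak, single embryos stood apart from their group by Dixon's criterion at 95%. There were 7 cases in 32 tests, each of 1 gene in 1 genotype. The tests share embryos and merge the stages, so they are not independent and no chance rate is given. *Nanog* was at 1.84 CPM in E2.5 WT replicate 6, the WT embryo that also had the lowest *Dis3* level (18.1 CPM), and *Tbx3* at 116 CPM in E2.75 WT replicate 1. *Tfap2c* was at 29.6 CPM in E2.5 WT replicate 1, and *Cdx2* at 7.798 CPM in E2.75 Het replicate 3. The other 3 cases were genes near 0 in which an embryo had a few counts, with *Tfap2a* at 1.00 CPM (E2.5 WT replicate 4) and *Sox1* at 2.60 (E2.5 Null replicate 1) and 0.667 (E2.5 WT replicate 4).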

How the results depend on the processing

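Over 146 comparisons of a result with an alternative, 106 stayed within the spread between replicates or 1.5 times the count, and 40 moved. Requiring 50% of each peak to overlap left 891 distal intergenic peaks, with 12.2% having a replicate 2 peak against mCherry alone and a median CpG ratio of 0.360. A −log10 q of at least 10 in both replicates left 128, with median heights of 19.9-fold and 8.71-fold, peaks against mCherry alone at 100% and 59.4%, a CpG ratio of 0.589 and 0% repeat-masked bases. Single replicates gave 3486 (replicate 2 alone) to 14788 peaks (replicate 1 alone), a replicate 1 height of 5.18-fold, shares against mCherry alone of 27.4% in replicate 1 and 5.13% in replicate 2, CpG ratios of 0.281 to 0.287 and repeat medians of 7.33% to 7.67%. The CpG ratio was 0.370 with merged intervals and 0.387 over whole intervals, which had a repeat median of 0%, and repeats were at 7% both at 5 kb from every TSS and without gene bodies of any kind. After seeing the data, RefSeq starts were added as a limit (CpG ratio 0.358), which left 1230 peaks, and chromosome 11 was left out (0.380), which left 1226 peaks and 7 rises and 21 falls among the nearest genes. The RefSeq limit was not run on the nearest genes.

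For the nearest genes, DESeq2 called 21 rises and 35 falls and the fit without a count filter 20 and 36, both with 934 genes tested. Over all genes the shares were 3.70% and 1.63% with DESeq2 and 3.77% and 1.61% without the filter. The ERCC spike-ins gave 3 and 256 with a median of −1.26, where falls were 40.8% of the nearest genes and 33.45% of all genes. Leaving out 1 embryo gave 5 to 9 rises and 13 to 28 falls. Without E2.5 WT replicate 6, left out after seeing the data, there were 9 and 21. With the replicate number as a block there were 8 rises and 14 falls. Deviations of embryos with the same number correlated at −0.099 to 0.055 over 5 pairs and those with different numbers at −0.084 to 0.129 over 18. The deviations of the 2 Het embryos at E2.5 mirror each other by construction. With so few pairs, these values cannot decide whether the numbers pair the embryos. The causes of these shifts were not tested. The peak lists give no depth, so peaks missing from 1 replicate cannot be told from peaks below its detection.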

Other observations

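Distal intergenic peaks were unevenly spread over the chromosomes. Chromosome 11 held 263 of them (17.7%) and 3.73% of the genome length that obeys the same distance and gene rule, which is 4.97 per Mb against 0.896 per Mb on the other chromosomes together. The height of these peaks was not above that of the whole set, with medians of 6.50-fold and 4.60-fold. Chromosome 11 also took 13.1% of all shared intervals, 12.7% and 12.45% of the peaks against IgG and 11.2% and 11.9% of those against mCherry alone, in replicates 1 and 2. At the other end, chromosome X had 0.325 and chromosome Y 0.0265 per Mb. Copy number of the cells and depth of the controls by chromosome were not measured here.

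Most of the peaks stood alone. When peaks within 10 kb of each other were joined, 1097 remained single, 146 pairs and 28 groups of 3 were formed, and 4 groups had 4 peaks. The group next to *Arhgap23*, which encodes a GTPase-activating protein, spanned chr11:97400379-97408404 with heights of 6.607-fold to 20.78-fold in replicate 1 and 3.453-fold to 5.753-fold in replicate 2. The other 3 groups of 4 lay next to *Bahcc1* (5.591-fold to 17.98-fold in replicate 1), *Irf2bpl* (5.708-fold to 8.612-fold) and *Ggnbp1* (4.282-fold to 11.31-fold). *Pax2*, a paired box factor of kidney and brain, was with *Rpl38* the nearest coding gene of most distal intergenic peaks, at 6 each.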
